A study of Mus musculus with 2 samples.

Results

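The 9 genes described here belong to the interferon gamma and interleukin-12 circuit, followed through the cells of 2 mouse pancreatic tumours: Ifng and Il12b, which encode the secreted factors, Ifngr1, Ifngr2, Il12rb1 and Il12rb2, which encode the receptor chains, and Jak2, Irf1 and Socs1, which carry or damp the signal. They were taken by symbol from the gene table, where each of the 9 had 1 row among 32285 genes. No cut-off on a measured value was used, but the members were chosen with earlier results of these data known. KPC cells, a pancreatic cancer line derived from a Pdx-1-Cre mouse model of the disease, were injected into the pancreas of mice as an orthotopic allograft. The cells of the KPC-shV group held a control hairpin and those of the KPC-shZEB1 group one against Zeb1, and 1 tumour per group was dissociated for 3' single-cell RNA sequencing. By the study's text the hosts of both groups received gemcitabine, a nucleoside analogue used against pancreatic cancer, which the sample labels do not mention. The knockdown lines were stable lentiviral lines kept under drug selection, so each tumour stands for 1 line in 1 mouse.

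Interferon gamma is made mainly by natural killer cells and by CD4 and CD8 T cells. It binds a receptor of a ligand-binding chain (Ifngr1) and a signalling chain (Ifngr2), and the kinases JAK1 and JAK2 on these chains start a signal that acts through GAS sites and turns on genes such as Irf1. IRF1 is itself a transcription factor that raises antigen presentation and chemokine genes, and SOCS1 is a feedback brake that blocks the kinases. Interleukin-12, made by dendritic cells and macrophages, is a pair of the p40 chain (Il12b) and the p35 chain (Il12a), and acts through Il12rb1 and Il12rb2 and STAT4 to drive interferon gamma production. The p40 chain also pairs with p19 (Il23a) to form interleukin-23, so Il12b RNA alone does not tell which of the cytokines is made.

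Filtering left 11398 cells of the KPC-shV library and 12104 cells of the KPC-shZEB1 library, with 101201508 and 118943000 UMIs (unique molecular identifiers, 1 per captured RNA molecule) and a median of 3720 and 4252 UMIs per cell. Throughout, values stand in that order, KPC-shV first. A level is the sum of a gene's UMIs over the cells of a class, scaled to 1000000 UMIs of the class (CPM, counts per 1000000). A ratio is the CPM in the library labelled KPC-shZEB1 over that in the library labelled KPC-shV, and values in parentheses after it are the bounds of its 95% interval. With 1 library per group no difference has a replicate check, no test was possible, and intervals cover counting error only. A gene was called higher or lower where its ratio was at least 1.5 or at most 0.667, the interval did not hold 1, and the class held at least 50 of its UMIs. The knockdown target did not separate the labels in these RNA counts. Zeb1 reached 167 and 189 CPM in tumour-like cells with a ratio of 1.13 (1.09 to 1.17), so direction is given by library label only. The study also presents knockdown efficiency in KPC cells and Zeb1 staining of tumours, which are other measures and were not examined here. Granulocyte-like cells made up 60.2% and 35.6% of cells, T-like cells 3.54% and 10.5%, B-like cells 2.54% and 10.1%, and dendritic-like cells 0.904% and 2.55%. The class names rest on markers: Cd3e was found in 81.4% and 70.7% of T-like, Ncr1 in 74.1% and 61.8% of NK-like, Flt3 in 61.2% and 60.2% of dendritic-like and Cd79a in 95.8% and 96.8% of B-like cells. Among kept cells 36 barcodes occurred in both libraries.

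Promoters of Irf1 and Socs1 are shown first, since the values below turn on genes that interferon gamma induces. The 250 bases before a RefSeq start (GRCm38.p6) of 8 of the members were searched on both strands for the GAS motif TTCNNNGAA and the core of the interferon-stimulated response element, GAAA and GAAA with 2 bases of any kind between them. Irf1 (chr11:53769764-53770013, plus strand) held 1 GAS match 90 bases before its start, and Socs1 (chr16:10785537-10785786, minus strand) held 2 response cores 83 and 77 bases before its start, which overlap each other. A second RefSeq window of Irf1 (chr11:53770223-53770472, plus strand) held neither motif. The sequences are printed 5′ to 3′ on the strand of the gene, with the matches in capitals.
Irf1: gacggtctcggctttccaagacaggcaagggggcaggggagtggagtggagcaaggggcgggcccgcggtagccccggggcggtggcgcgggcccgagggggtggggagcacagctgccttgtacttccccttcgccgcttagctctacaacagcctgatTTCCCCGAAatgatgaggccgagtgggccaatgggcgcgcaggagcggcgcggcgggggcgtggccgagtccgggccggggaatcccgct
Socs1: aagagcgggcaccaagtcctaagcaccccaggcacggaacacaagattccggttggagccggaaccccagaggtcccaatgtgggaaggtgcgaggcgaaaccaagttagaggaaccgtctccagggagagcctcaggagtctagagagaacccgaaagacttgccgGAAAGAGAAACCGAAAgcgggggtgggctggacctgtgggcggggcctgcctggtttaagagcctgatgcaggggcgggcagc
Il12rb2 held a GAS match 123 bases and Ifng a GAS match 249 bases before the start, while Il12b, Ifngr1, Ifngr2 and Jak2 held neither motif in this window. Over all 32851 RefSeq promoter windows of the same length, 7.02% held the GAS motif and 2.98% the response core. A match is a description of letters and not a measured binding site.

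Ifng, at chr10:118441046-118445892 on the plus strand (GRCm38), was a gene of T-like and NK-like cells in both libraries. T-like cells reached 136 CPM (123 to 151) and 157 CPM (148 to 166), and NK-like cells 62.8 CPM (39.8 to 94.3) and 123 CPM (103 to 147). Every other class with at least 50 cells in each library stayed between 0.68 and 4.97 CPM. The lymphocyte classes, with the few ILC2-like cells, held 74.4% of 520 Ifng UMIs and 83.0% of 1622. Most T-like cells had none: 16.3% and 15.9% of them held an Ifng UMI, or 4.95% and 6.04% after thinning every cell to 1000 UMIs, against 0.321% and 0.649% of granulocyte-like cells, where median depth was 3147 and 2907 UMIs rather than 5357 and 4876.

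Summed over all cells Ifng stood at 5.14 and 13.6 CPM, a ratio of 2.65 (2.40 to 2.94), while T-like cells were a larger share of that library. Within classes the ratio was smaller and uneven. In T-like cells it was 1.15 (1.02 to 1.30), under the fold used for a call, and the mean of each cell's CPM gave 0.700, the opposite direction. In NK-like cells it was 1.96 (1.25 to 3.21), a call of higher on 23 and 128 UMIs, while the share of NK-like cells with an Ifng UMI was 25.9% and 17.9%. Without the 5 NK-like cells with the most Ifng in each library the ratio was 1.70 (0.822 to 3.96), an interval that holds 1, so the call was lost. The call in NK-like cells was 1 of 6 members with enough UMIs in NK-like cells, where 5.39% of all genes tested were called higher. In T-like cells none of 8 members was called higher, with 5.42% of all genes called higher.

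The T-cell subsets went in different directions. CD8 T-like cells, the cytotoxic subset, held 111 CPM (92.9 to 131) and 210 CPM (195 to 225), a ratio of 1.89 (1.57 to 2.29), while the share of them with an Ifng UMI was 23.3% and 17.7%. CD4 T-like cells, the helper subset, held 378 CPM (328 to 434) and 193 CPM (174 to 214), a ratio of 0.510 (0.428 to 0.608), with Ifng UMIs in 23.3% and 19.7% of them. Few cells carried these levels. In CD4 T-like cells the 5 cells with the most Ifng held 74.8% of the UMIs in KPC-shV and 31.7% in KPC-shZEB1. Without those cells the ratio was 1.30 (0.956 to 1.79), an interval that holds 1. The 5 cells came from 24 positive cells in KPC-shV and 79 in KPC-shZEB1, so this check trims KPC-shV harder. Without the 1 top cell of each library the ratio was 0.580 (0.477 to 0.707). In CD8 T-like cells the 5 cells with the most Ifng held 61.0% and 66.1%, and without them the ratio was 1.67 (1.24 to 2.29). There 1 cell of the library labelled KPC-shZEB1 held 209 of 759 UMIs. Among genes tested, 5.81% were called higher in CD8 T-like cells and 3.12% were called lower in CD4 T-like cells, which sets how common such a call is. Regulatory T-like cells, which restrain responses, held 0 and 6 Ifng UMIs in 61 and 124 cells, and the gamma-delta T-like cells 9 and 3.

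**Figure D1:**
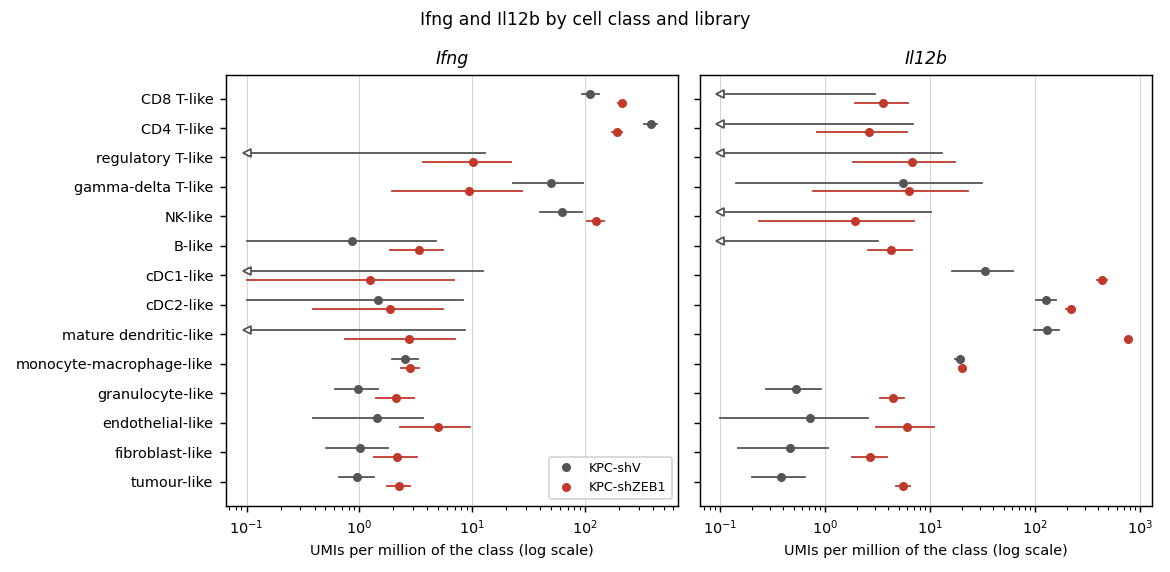
Ifng and Il12b levels by cell class, as CPM of the class on a log axis, with 1 point per library (grey KPC-shV, red KPC-shZEB1) and bars for exact Poisson 95% intervals; open triangles mark classes with no UMI and are drawn at the left end. Ifng stands at 111 to 378 CPM in CD8 and CD4 T-like cells, with the libraries in opposite order in these subsets, and Il12b is highest in dendritic subsets, at 774 CPM in mature dendritic-like cells of KPC-shZEB1.

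Sub-clusters of the T-cell classes differed more than the classes. The highest Ifng was in a CD4 T-like sub-cluster led by Ccl1, Penk and Csf2, at 763 and 464 CPM, where 50% and 60% of cells held an Ifng UMI. CD8 T-like sub-clusters spread from none to 420 CPM. Cells led by Lef1 and Dapl1 held no Ifng UMI in 21 and 155 cells. The sub-cluster led by Gm156, Gzma and Cd8a held 165 and 198 CPM with a ratio of 1.20 (0.892 to 1.63). A CD8 T-like sub-cluster of 24 and 58 cells was led by cell-cycle genes such as Hist1h1b, Pclaf and Mki67, with Gzma also among its leading genes. It held 75.6 and 420 CPM, a ratio of 5.56 (3.91 to 8.16). The one led by Ly6c2 held 136 and 30.2 CPM, a ratio of 0.222 (0.113 to 0.411). The largest CD8 T-like sub-cluster was the Ly6c2-led one in the library labelled KPC-shV, with 44 of 129 cells, and the Lef1-led one in the other, with 155 of 440 cells. In NK-like cells the Gzmc-led sub-cluster held 12.3 and 186 CPM on 2 and 60 UMIs, and the Klra8-rich sub-cluster 103 and 95.3 CPM with a ratio of 0.921 (0.558 to 1.58). Of the 128 Ifng UMIs in NK-like cells of KPC-shZEB1, 42 were in 1 cell. The sub-cluster ratios were not computed without the top cells, so the part of single cells in them was not tested.

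Outside lymphocytes Ifng was low. Tumour-like cells had 33 and 76 Ifng UMIs, 0.953 and 2.24 CPM, with a ratio of 2.35 (1.54 to 3.65), and granulocyte-like cells 22 and 28 UMIs, with a ratio of 2.17 (1.20 to 3.98) and never more than 1 UMI in a cell. The positive tumour-like cells held 1.32 and 1.09 UMIs on average. In tumour-like cells all 6 T-cell markers were also higher in the library labelled KPC-shZEB1, with a summed level of 17.4 and 42.2 CPM, and so were all 6 B-cell markers, at 11.9 and 34.0 CPM. In granulocyte-like cells the summed T-cell markers were 17.5 and 48.6 CPM, 6 of 6 higher, and none of these markers was at 0 in either class. Their part in the Ifng ratio was not tested. Monocyte-macrophage-like cells held 2.55 and 2.82 CPM, with 38 of 60 UMIs of the library labelled KPC-shV in 1 cell.

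Across 26 columns, the 13 classes and subsets in each library, the 3 genes most like Ifng by Pearson correlation of log2(CPM + 1) among 10991 genes were Nrgn (0.93), Vipr2 (0.91) and Fasl (0.91), the last being the Fas ligand of killer lymphocytes. The columns share libraries and depth, so these are descriptions. By the same measure the genes most like Il12b were Ccl22 (0.96), Ccl17 (0.95) and Grk3 (0.93), and Ccl22 and Ccl17 encode chemokines of dendritic cells.

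Il12b, at chr11:44400063-44414033 on the plus strand, was a gene of dendritic-like cells and, at a lower level, of monocyte-macrophage-like cells. Dendritic-like cells held 104 CPM (88.2 to 122) and 403 CPM (385 to 422), on 153 and 1843 UMIs, and the ratio of 3.88 (3.28 to 4.6) was the largest of any member in its leading class. The share of dendritic-like cells with an Il12b UMI was 19.4% and 28.8%, or 6.80% and 14.6% after thinning. Il12b and Irf1 were the 2 of 7 members called higher in dendritic-like cells, where 5.55% of all genes tested were called higher. Without the 5 cells with the most Il12b in each library, which held 75.2% and 35.9% of the UMIs, the ratio was 9.81 (7.11 to 13.9). Those cells came from 20 positive cells in KPC-shV and 89 in KPC-shZEB1. The check thus trims KPC-shV harder and does not show a larger difference.

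The dendritic subsets differed in how many cells carried it. Mature dendritic-like cells, the Ccr7-positive cells that leave tissue for lymph nodes, held 130 CPM (98.2 to 169) and 774 CPM (730 to 821), a ratio of 5.96 (4.56 to 7.94), with Il12b in 33.3% and 53.1% of 39 and 113 cells. Among genes tested in them 7.23% were called higher, and 2 of 7 members were, Il12b and Irf1. cDC1-like cells, the cross-presenting Xcr1-positive subset, held 33.5 and 434 CPM on 10 and 351 UMIs, a ratio of 12.96 (6.96 to 27.3), but in only 13 and 36 cells, and 1 cell of the library labelled KPC-shZEB1 held 111 of the 351 UMIs. In cDC2-like cells, marked by Cd209a, 62 of 87 UMIs and 241 of 348 were in 1 cell each, and the levels were 128 and 217 CPM with a ratio of 1.70 (1.34 to 2.18). There 2 of 7 members were called higher, Il12b and Irf1, against 6.56% of all genes tested, and Ifngr1 was called lower, against 3.98%. The largest cDC2-like sub-cluster went the other way, at 216 and 138 CPM, a ratio of 0.639 (0.476 to 0.860). Few cells carry these cDC2-like values. Only 2 of 44 cDC2-like cells were positive in KPC-shV and 13 of 99 in KPC-shZEB1. Without the 5 cells with the most Il12b in each library 0 and 11 UMIs were left, so neither direction is secure.

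Monocyte-macrophage-like cells held 19.1 CPM (17.4 to 20.9) and 20.1 CPM (18.8 to 21.6) of Il12b, a ratio of 1.05 (0.938 to 1.19). The libraries did not hold these UMIs in the same way. In the library labelled KPC-shV 45 positive cells carried 450 UMIs, 162 of them in 1 cell, and in the library labelled KPC-shZEB1 183 positive cells carried 785, so that 2.78% and 7.24% of cells were positive and the ratio without the top 5 cells of each library was 2.07 (1.74 to 2.47). After thinning, the shares were 0.987% and 1.15%. Within the 3 macrophage clusters the ratio was 1.19 in the cluster led by Mmp12, 0.420 (0.328 to 0.536) in the cluster led by F13a1 and Mrc1, and 3.37 in the monocyte cluster led by Chil3. By source, monocyte-macrophage-like cells held 70.8% of 636 Il12b UMIs in KPC-shV and 26.4% of 2973 in KPC-shZEB1, and dendritic-like cells 24.1% and 62.0%.

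In the other 7 classes with at least 50 cells in each library Il12b stayed below 7 CPM, and its level was higher in the library labelled KPC-shZEB1 in each. Tumour-like cells held 13 and 187 UMIs, 88 of the latter in 1 cell, and the ratio was 14.7 (8.38 to 28.1) with that cell and 8.43 (4.61 to 16.9) without the top cell of each library. Granulocyte-like cells held 0.525 and 4.41 CPM. No B-like cell of 289 held an Il12b UMI in the library labelled KPC-shV, which by a count of 3 allows a share of up to 1.04%, against 1.47% of 1226 in the other; the limit is on cells with a UMI and not on cells that express the gene. The summed monocyte-macrophage markers in tumour-like cells were 671 and 1738 CPM, 9 of 9 higher, and the dendritic markers 153 and 138 CPM, 7 of 9 higher. Their part in these ratios was not tested.

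The p35 chain had another distribution. Il12a held 1 and 0 UMIs in dendritic-like cells, 0 in cDC1-like and mature dendritic-like cells of both libraries, and 9 and 58 UMIs in monocyte-macrophage-like cells, where it was 0.382 and 1.49 CPM with a ratio of 3.90 (1.92 to 8.95). It was found in granulocyte-like cells, at 8.36 and 9.71 CPM on 191 and 130 UMIs, and at 202 and 72.3 CPM in the 15 and 39 plasmacytoid dendritic-like cells. The dendritic-like cells with the most p40 RNA therefore had p35 RNA at or near 0 at this depth. Il23a, the p19 partner, was held by granulocyte-like cells at 563 and 618 CPM. In dendritic-like cells it stood at 42.1 and 27.5 CPM and was called lower, with a ratio of 0.654 (0.479 to 0.901). The subsets differed. In cDC2-like cells it was 70.6 and 38.7 CPM, a ratio of 0.549 (0.371 to 0.818). In mature dendritic-like cells it was 23.2 and 35.4 CPM on 10 and 52 UMIs, a ratio of 1.53 (0.767 to 3.37) whose interval holds 1.

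The 9 other cytokines that induce interferon gamma (Il12a, Il23a, Il27, Ebi3, Il18, Il15, Il2, Il21 and Il1b) did not move together. In dendritic-like cells 0 of 5 with enough UMIs were called higher and 2 lower, Il15 at 78.2 and 44.2 CPM and Il23a, while 3.62% of all genes were called lower. In T-like cells 1 of 6 was called higher, Il21 at 16.1 and 25.9 CPM (ratio 1.61, 1.15 to 2.29), and 3 lower, Il2 at 8.98 and 3.48 CPM, Il15 at 10.9 and 4.51 CPM and Il23a, while 1.84% of all genes were called lower. In monocyte-macrophage-like cells 2 of 7 were called higher, Il12a and Il27 at 5.22 and 8.80 CPM, against 7.57% of all genes.

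The receptor chains for interleukin-12 had ratios near 1 in the lymphocytes that carry them. Il12rb2 (chr6:67291318-67376188, minus strand) held 623 CPM (545 to 709) and 635 CPM (588 to 686) in NK-like cells, a ratio of 1.02 (0.876 to 1.19), with UMIs in 81.5% and 83.2% of the cells. T-like cells held 269 and 272 CPM, a ratio of 1.01 (0.930 to 1.10). Within the named T-like subsets it was 302 and 302 CPM in CD4, 190 and 176 CPM in CD8, 28.2 and 23.4 CPM in regulatory and 16.6 and 12.6 CPM in gamma-delta T-like cells. The T-like cells left without a subset name, 78 and 252 cells, held more. Without the 1 top cell of each library they held 678 and 657 CPM, a ratio of 0.969 (0.847 to 1.11). Mature dendritic-like cells also held it, at 262 and 247 CPM (ratio 0.943, 0.761 to 1.17), while cDC1-like cells held 3.35 and 7.41 CPM on 1 and 6 UMIs. Il12rb2 overlaps Serbp1 on the opposite strand, and whether counting used the strand is not given in the sources used here, so part of its UMIs could belong to that gene.

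Il12rb1 (chr8:70808449-70821424, plus strand) was sparse, with 127 and 351 UMIs in all. NK-like cells held 10.9 and 12.5 CPM on 4 and 13 UMIs, and T-like cells 6.36 and 6.44 CPM on 17 and 50 UMIs. Both chains were seen in the same cell in 5.56% and 5.78% of NK-like and in 2.23% and 2.04% of T-like cells, shares that Il12rb1 limits. In monocyte-macrophage-like cells it held 2.29 and 3.41 CPM with a ratio of 1.49 (1.08 to 2.08), just under the fold. In tumour-like cells both chains were called higher, Il12rb1 at 1.10 and 3.51 CPM (ratio 3.20, 2.20 to 4.74) and Il12rb2 at 5.69 and 9.79 CPM (ratio 1.72, 1.44 to 2.06). With Ifng and Il12b they made 4 of 9 members called higher there, against 10.2% of all genes tested. Il12rb2 was also called higher in granulocyte-like cells, at 3.42 and 8.52 CPM, and in fibroblast-like cells, at 3.30 and 6.96 CPM, in the latter as 1 of 6 members against 5.29% of all genes tested. These levels are small beside those of NK-like cells, and the summed T-cell markers were 17.4 and 42.2 CPM in tumour-like, 17.5 and 48.6 CPM in granulocyte-like and 20.6 and 42.7 CPM in fibroblast-like cells, with 6 of 6 higher in each. Their part in the receptor ratios was not tested.

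Genes of the lymphocyte response to interleukin-12 were seldom called in the cells that carry the receptor. Stat4, the transducer, held 1302 and 1350 CPM in T-like and 1347 and 1650 CPM in NK-like cells. Of 11 genes of the list with enough UMIs in T-like cells 0 were called higher and 1 lower, Il23r, the interleukin-23 receptor, at 129 and 65.7 CPM (ratio 0.510, 0.444 to 0.586), and the largest ratio was that of Il21r, 1.22 (1.14 to 1.30). In NK-like cells 1 of 9 was called higher, Il18r1, an interleukin-18 receptor chain, at 205 and 385 CPM (ratio 1.88, 1.46 to 2.44). In tumour-like cells 7 of 11 were called higher, against 10.2% of all genes tested, led by Il21r at 5.11 and 18.7 CPM and Il2rb at 3.21 and 11.1 CPM. These are lymphocyte genes at low level, and T-cell markers were higher in the same cells as given above. Such calls were not confined to tumour-like cells. In monocyte-macrophage-like cells 6 of 10 were called higher, against 7.57%, and in granulocyte-like cells 5 of 10, against 21.1%. Fibroblast-like cells had 4 of 10, against 5.29%, and endothelial-like cells 3 of 5, against 7.11%. B-like and dendritic-like cells had 1 of 7 and 1 of 8, against 6.45% and 5.55%. In these classes other than dendritic-like, all 6 T-cell markers were also higher. Their part was not tested.

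Ifngr1 (chr10:19591949-19610229, plus strand), the ligand-binding chain, was highest in lymphocytes of the T and NK lineages and present in every class. NK-like cells held 1245 and 1166 CPM, with a ratio of 0.936 (0.840 to 1.04), and T-like cells 1022 and 913 CPM, with a ratio of 0.893 (0.854 to 0.934). Their levels in the other classes were dendritic-like (304 and 223 CPM), monocyte-macrophage-like (190 and 185), endothelial-like (159 and 175), granulocyte-like (117 and 142), tumour-like (113 and 129), B-like (124 and 112) and fibroblast-like cells (77.9 and 92.9). The intervals of granulocyte-like, tumour-like and B-like cells overlap in the library labelled KPC-shV. Ratios in all 9 classes lay between 0.733, in dendritic-like cells, and 1.22, in granulocyte-like cells, and none was called. In tumour-like cells it was 1.15 (1.10 to 1.20). Among subsets only cDC2-like cells passed the fold, at 426 and 277 CPM with a ratio of 0.651 (0.560 to 0.757).

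Ifngr2 (chr16:91547072-91565623, plus strand), the signalling chain, had another order, with B-like cells at 145 and 106 CPM and NK-like cells lowest at 21.9 and 17.4 CPM on 8 and 18 UMIs. Dendritic-like, monocyte-macrophage-like and T-like cells held 80.5 to 121 CPM, and granulocyte-like, tumour-like, endothelial-like and fibroblast-like cells 51.9 to 68.5 CPM. The ratio was 0.730 (0.611 to 0.876) in B-like cells, 1.23 (1.06 to 1.44) in T-like cells and 1.16 (1.09 to 1.23) in tumour-like cells. CD8 T-like cells held 44.0 CPM (33.0 to 57.4) and 88.9 CPM (79.4 to 99.2), a ratio of 2.02 (1.51 to 2.75). Ifng and Ifngr2 were the 2 of 7 members called higher in CD8 T-like cells, against 5.81% of all genes tested. Ifngr2 is among the 10 leading genes of the Lef1-led CD8 sub-cluster, the one with no Ifng UMI, and that sub-cluster held 21 of 129 and 155 of 440 CD8 T-like cells.

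UMIs of both receptor chains were found in the same cell in 49.8% (47.3 to 52.4) and 57.2% (54.6 to 59.8) of tumour-like cells, 56.1% and 60.8% of monocyte-macrophage-like cells, 54.4% and 59.9% of dendritic-like cells and 27.2% and 31.1% of T-like cells. Granulocyte-like cells, which are shallow, had both in 5.90% and 5.72%, and NK-like cells, with little Ifngr2, in 12.96% and 10.4%. Gamma-delta T-like cells had both in 69.7% and 63.2% of 33 and 57 cells.

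**Figure D2:**
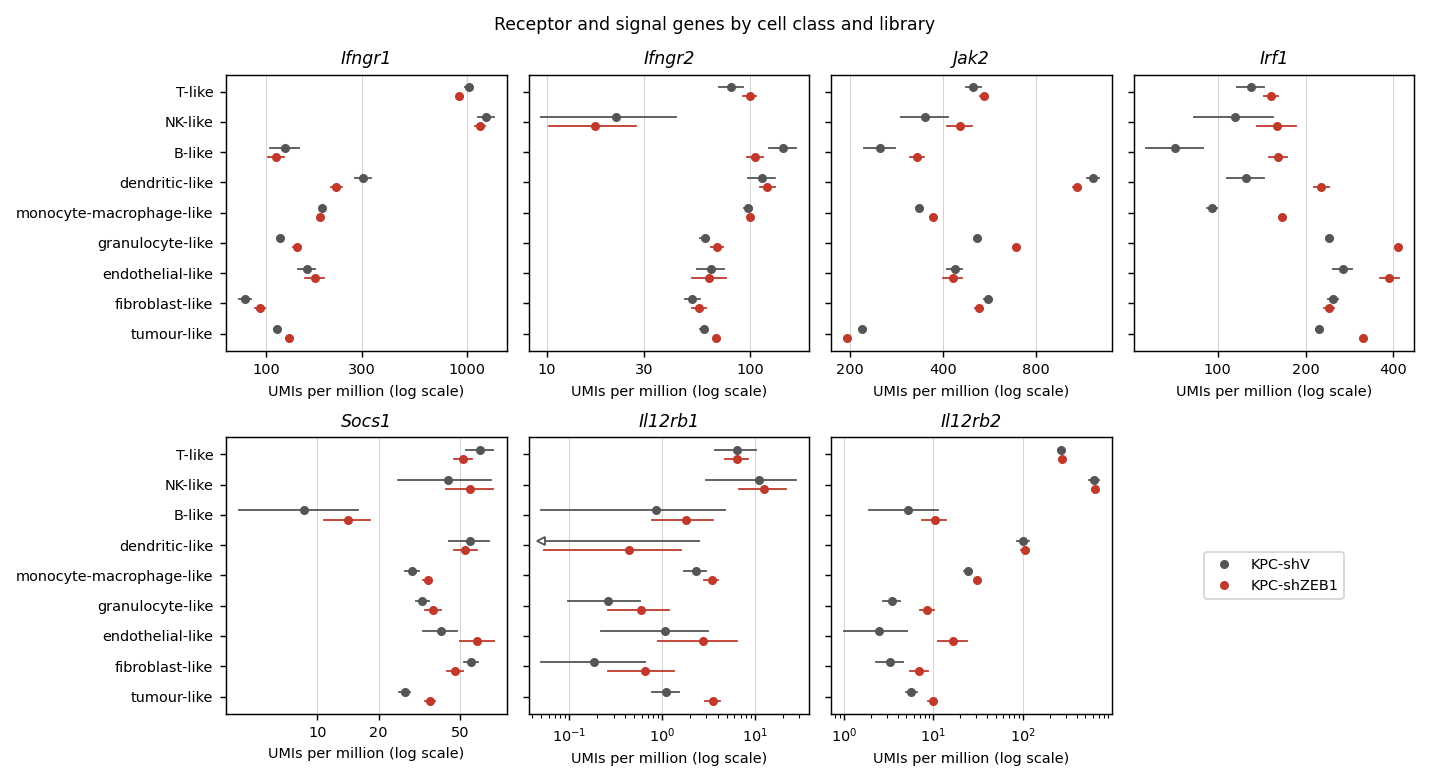
Levels of the receptor and signal genes in 9 cell classes, as CPM of the class on log axes that differ between panels, with 1 point per library and bars for exact Poisson 95% intervals; the open triangle marks a class with no UMI. Ifngr1 peaks in NK-like and T-like cells at 913 to 1245 CPM with the libraries close together, while the Irf1 intervals of the libraries are apart in every class except T-like, NK-like and fibroblast-like cells.

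Jak2 (chr19:29251828-29313080, plus strand), the kinase on the signalling chain, was, among the 9 classes with at least 50 cells in each library, highest in dendritic-like cells, at 1218 and 1083 CPM with a ratio of 0.889 (0.842 to 0.939), and lowest in tumour-like cells, at 219 and 196 CPM with a ratio of 0.896 (0.867 to 0.926). Granulocyte-like cells held 515 and 687 CPM, a ratio of 1.33 (1.30 to 1.37), B-like cells 250 and 329 CPM, fibroblast-like cells 558 and 521 CPM and T-like cells 501 and 542 CPM. None of these 9 classes passed the fold. Since many genes of granulocyte-like cells had ratios above 1, with a median over all genes tested of 0.24 on the log2 scale, the granulocyte values are to be read against that shift.

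Irf1 (chr11:53770014-53778374, plus strand) was the member called higher in the most classes. Its ratio was 2.25 (1.79 to 2.86) in B-like cells, at 71.5 and 161 CPM, 1.81 (1.55 to 2.13) in dendritic-like cells, at 125 and 226 CPM, 1.73 (1.65 to 1.82) in monocyte-macrophage-like cells, at 95.4 and 166 CPM, and 1.73 (1.66 to 1.79) in granulocyte-like cells, at 241 and 416 CPM. These 4 classes passed the fold. Irf1 was the 1 of 6 members called higher in B-like cells, against 6.45% of all genes tested, and the 1 of 9 in monocyte-macrophage-like cells, against 7.57%. In granulocyte-like cells 4 of 8 members were called higher (Ifng, Il12b, Il12rb2 and Irf1), where 21.1% of all genes tested were. Endothelial-like cells followed at 268 and 387 CPM, a ratio of 1.44 (1.30 to 1.60), tumour-like cells at 222 and 314 CPM, a ratio of 1.41 (1.37 to 1.46), and NK-like cells at 115 and 159 CPM, a ratio of 1.39 (0.983 to 2.00). In T-like cells it was 1.17 (1.04 to 1.32), and in fibroblast-like cells, at 248 and 240 CPM, 0.967 (0.916 to 1.02).

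The share of cells with an Irf1 UMI moved in the same direction after thinning, from 9.38% to 15.04% in monocyte-macrophage-like, 16.6% to 23.8% in granulocyte-like, 4.50% to 14.5% in B-like and 16.8% to 23.0% in tumour-like cells. In the T-cell subsets, CD4 T-like cells held 111 and 173 CPM with a ratio of 1.57 (1.19 to 2.10), called higher as 1 of 7 members against 5.59% of all genes tested, and regulatory T-like cells 106 and 182 CPM with a ratio of 1.73 (1.14 to 2.68). CD8 T-like cells held 150 and 124 CPM with a ratio of 0.826 (0.694 to 0.986), and of 0.876 (0.727 to 1.06) without the 5 cells with the most Irf1 in each library.

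Irf1 was higher in the library labelled KPC-shZEB1 in each of the 3 monocyte-macrophage clusters, with ratios of 1.57 to 1.86, and in each of the 6 granulocyte clusters, with ratios of 1.19 to 1.62. The highest level was in granulocyte cluster 16, led by the interferon-stimulated genes Rsad2, Slfn4 and Ifit1, at 433 and 696 CPM. Tumour-like clusters were less even, with ratios of 1.12 in cluster 6, 1.41 in cluster 12, 0.931 in cluster 13 and 1.57 in cluster 19. Cluster 19 held 12 cells of KPC-shV and 234 of KPC-shZEB1, and carried 337 and 530 CPM. Without it the tumour-like ratio was 1.15 (1.11 to 1.19) in place of 1.41, so much of the tumour-like difference lay in a cluster found almost entirely in 1 library.

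**Figure D3:**
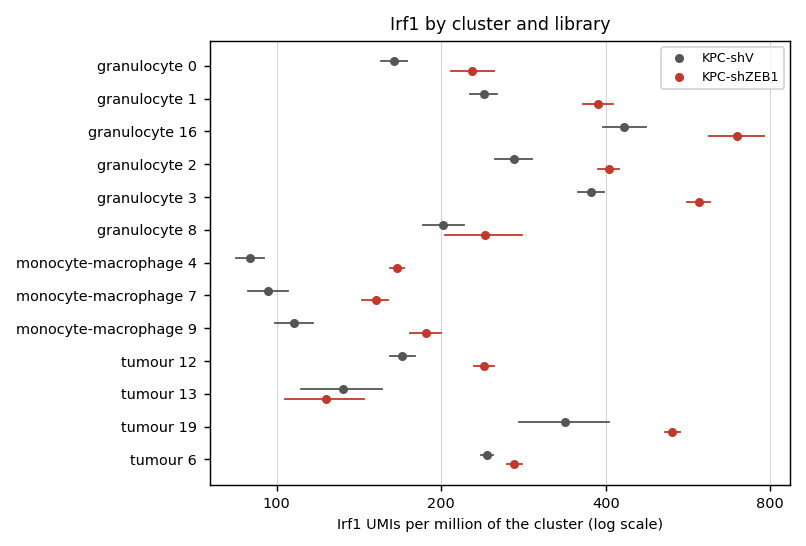
Irf1 level in each granulocyte, monocyte-macrophage and tumour cluster, as CPM of the cluster on a log axis, with 1 point per library and bars for exact Poisson 95% intervals. KPC-shZEB1 lies to the right in the 9 granulocyte and monocyte-macrophage clusters, and the tumour clusters range from 123 CPM in cluster 13 to 530 CPM in cluster 19.

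Socs1 (chr16:10782240-10785536, minus strand), whose promoter holds the overlapping response cores shown above, did not follow Irf1. T-like cells held 62.5 and 51.9 CPM, a ratio of 0.830 (0.691 to 1.00), dendritic-like cells 55.7 and 53.1 CPM, fibroblast-like cells 56.8 and 47.1 CPM with a ratio of 0.829 (0.736 to 0.934), and granulocyte-like cells 32.6 and 36.8 CPM with a ratio of 1.13 (1.01 to 1.27). Tumour-like cells held 26.8 and 35.7 CPM, a ratio of 1.33 (1.22 to 1.45). Of the 9 classes only endothelial-like cells were called, at 40.2 and 60.8 CPM with a ratio of 1.51 (1.15 to 1.98) on 113 and 110 UMIs, as 1 of 5 members against 7.11% of all genes tested. By subset Socs1 was highest in mature dendritic-like cells, at 107 and 85.1 CPM. Among the 9 classes B-like cells had the least, 8.62 and 14.1 CPM, with a ratio of 1.64 (0.834 to 3.58) whose interval holds 1.

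**Figure D4:**
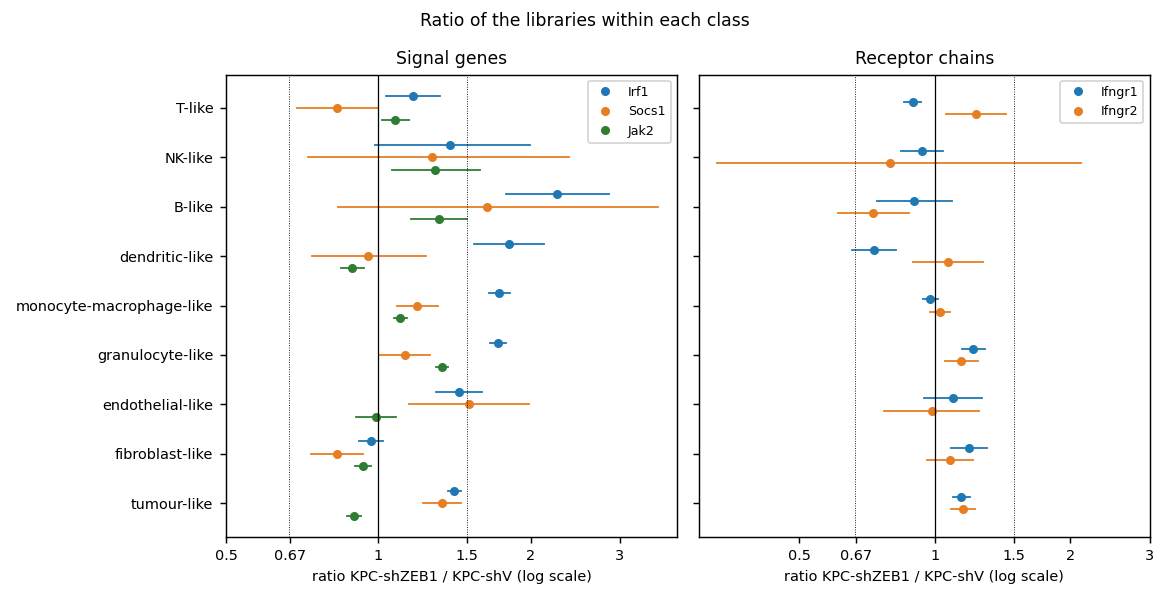
Ratio of KPC-shZEB1 over KPC-shV for the signal genes (left) and interferon gamma receptor chains (right) in 9 classes on a log axis, with exact 95% intervals for counting error; the solid line marks a ratio of 1 and the dotted lines the fold used for a call. Irf1 passes 1.5 in B-like, dendritic-like, monocyte-macrophage-like and granulocyte-like cells, Jak2 passes it in none, and both receptor chains stay between 0.73 and 1.23.

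Brakes of the receptor signal other than Socs1 were called lower in some classes. Socs3, a brake on cytokine receptors, was called lower in tumour-like cells, at 237 and 152 CPM (ratio 0.641, 0.619 to 0.664), where 3.48% of all genes tested were called lower. Usp18, which damps type I interferon signalling, was called lower in granulocyte-like cells, at 55.7 and 36.1 CPM (ratio 0.649, 0.583 to 0.721), where 2.44% were called lower.

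Genes that interferon gamma is known to induce were higher in many classes. The list of these genes was chosen with earlier results of these data known. Of the 31 on the list, all with enough UMIs in tumour-like cells, 22 were called higher and 0 lower there, against 10.2% of all genes tested called higher, with a median log2 ratio of 0.93 beside 0.03 over all genes tested. The ends of the list were Gbp4, a guanylate-binding protein, at 14.0 and 39.3 CPM, H2-Ab1, a class II chain, at 157 and 409 CPM, Cd274, which encodes PD-L1, at 118 and 116 CPM, and Icam1, an adhesion molecule, at 158 and 121 CPM. In granulocyte-like cells 22 of 30 were called higher, against 21.1%, with a median of 0.93 beside 0.24, from Gbp4 at 6.13 and 23.7 CPM to Nos2, the inducible nitric oxide synthase, which was called lower at 59.2 and 23.8 CPM. Monocyte-macrophage-like cells had 11 of 31 called higher, against 7.57%, and 0 lower, with Gbp5 at 41.4 and 91.3 CPM, Ido1 at 0.552 and 1.62 CPM and Cd274 at 577 and 529 CPM. Fibroblast-like cells had 13 of 30 against 5.29% of all genes tested, B-like cells 12 of 29 against 6.45% and endothelial-like cells 10 of 30 against 7.11%. T-like cells had 9 of 30 against 5.42%, NK-like cells 9 of 23 against 5.39% and dendritic-like cells 8 of 29 against 5.55%, with none of the list called lower in these 6 classes. In dendritic-like cells the largest were Iigp1, an immunity-related GTPase, at 21.1 and 103 CPM, and Cxcl9, a T-cell-attracting chemokine, at 84.3 and 314 CPM.

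Markers of other cells moved in the same classes, and class II genes such as H2-Ab1 and Cd74 are abundant in macrophages, dendritic cells and B cells. Over tumour-like, granulocyte-like, fibroblast-like and T-like cells the summed monocyte-macrophage markers ranged from 623 to 885 CPM in KPC-shV and from 1738 to 2402 CPM in KPC-shZEB1, with none at 0. The summed granulocyte markers in tumour-like cells went the other way, at 1247 and 560 CPM, 0 of 7 higher, as did the share of granulocyte-like cells among all cells. H2-Ab1, at 84.97 and 292 CPM, and Cd74, at 256 and 685 CPM, were also the genes with the largest ratios in T-like cells. Their part in the list counts was not tested. Within the tumour-like class 22 of 31 were called higher without cluster 19, against 9.21% of all genes tested, with a median ratio of 1.67 in place of 1.91. In cluster 6 it was 22 of 31 against 8.44%, in cluster 12 it was 19 of 31 against 6.98%, and in cluster 13 3 of 26, with 1 lower, against 6.55%. The cells of cluster 13 are shallow, at a median of 2241.5 UMIs.

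Genes known for induction by type I interferon went in different directions by class. Of 13 on the list 11 were in the gene table. In tumour-like cells 1 of them was called higher, Isg20 at 18.2 and 27.3 CPM, and 4 lower, among them Ifit3 at 20.6 and 9.20 CPM and Rsad2 at 52.1 and 29.5 CPM, with a median log2 ratio of -0.36, where 3.48% of all genes tested were called lower. In fibroblast-like cells 6 of 11 were called lower and 0 higher, with a median of -0.57, where 4.49% of all genes tested were called lower, and Rsad2 held 46.1 and 27.0 CPM. In endothelial-like cells 3 of 8 with enough UMIs were called higher and 0 lower, with a median of 0.34, against 7.11% called higher. In monocyte-macrophage-like cells 0 of 11 were called, with Isg15 at 107 and 141 CPM.

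**Figure D5:**
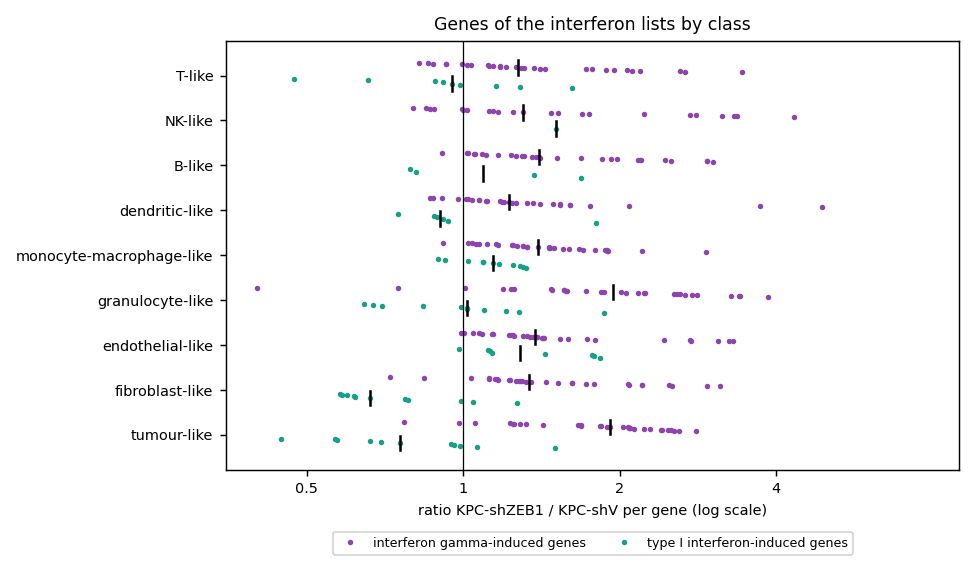
Ratio of KPC-shZEB1 over KPC-shV for each gene of the interferon gamma-induced list (purple) and the type I interferon-induced list (green) with at least 50 UMIs in the class, on a log axis; 1 point is a gene and the black tick the list median. In tumour-like and fibroblast-like cells the medians of the lists stand on opposite sides of 1, at 0.93 and -0.36 on the log2 scale in tumour-like cells.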

How the data were processed

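Single-cell RNA was measured with droplet 3' chemistry in 1 tumour per group. The deposited values are UMI counts per gene and cell barcode, produced by the authors; the submitters' processing notes name Cell Ranger 7.0.1 and mm10, while use of introns and strand in counting is not given in the sources used here. Of 12594 and 13271 barcodes, those under 500 genes, outside 1000 to 60000 UMIs or over 15% mitochondrial UMIs were dropped. Scrublet scores over 0.2, a threshold set after the scores were seen, removed 315 and 343 cells as doublets. Both libraries were clustered together (scanpy 1.11.5, leidenalg 0.10.2; 3000 variable genes without the listed pathway genes, 30 components, 20 neighbours, Leiden resolution 1), and T/NK and dendritic cells were clustered again. A main cluster was named where at least 3 markers were found in 10% of its cells at 3 times the median cluster level. A T/NK or dendritic sub-cluster needed at least 3 markers in 10% of its cells and its first marker in 20%, with no rule on level. The CD8 and CD4 marker lists share Cd3e and Trac. These rules were set after the clusters were seen.

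UMIs were summed by class and library. CPM have exact Poisson intervals, ratios exact conditional intervals and shares of cells Clopper-Pearson intervals, all at 95% and for counting error only; no p-value was computed because each group has 1 library. The calls were tried on simulated Poisson counts of tumour-like and T-like cells with known folds. Such counts do not hold UMIs gathered in few cells, so the trial does not bear on calls that few cells carry. All 9 members were named, and from each list at most the 2 largest and the 2 smallest ratios per class among genes with at least 50 UMIs. Il12a, Il23a and Stat4 were also named as partners of the members, a choice made after their values were seen. The 3 genes most like Ifng and Il12b were taken among those reaching 20 CPM in any column. The members and gene lists were chosen with earlier results of these data known. Genes were placed on GRCm38 with the GENCODE annotation, and promoters came from RefSeq.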

Additional observations from a re-analysis of the deposited data

Results flagged for a closer look

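Ifng differed in direction or size between cell classes under the same contrast of the libraries. Its ratio, KPC-shZEB1 over KPC-shV, was 1.96 in NK-like, 2.17 in granulocyte-like, 2.35 in tumour-like and 1.89 in CD8 T-like cells, and 0.510 in CD4 T-like cells, where the library labelled KPC-shZEB1 was the lower. The difference was not tested, since each group has 1 library. Without the 5 cells richest in Ifng in each library the ratio was 1.30 (0.956 to 1.79) in CD4 T-like cells, an interval that holds 1. In NK-like cells it was 1.70 (0.822 to 3.96), no longer a call, and in CD8 T-like cells 1.67 (1.24 to 2.29). This check trims the library with fewer positive cells harder. Without the 1 top cell of each library the CD4 T-like ratio was 0.580 (0.477 to 0.707). In granulocyte-like and tumour-like cells the ratios rest on 22 and 28 and on 33 and 76 UMIs, and T-cell markers were higher in both classes of the library labelled KPC-shZEB1.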

How the results depend on the processing

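For each member the ratio in its leading class, and for 4 members also that in tumour-like cells, was computed again under 8 alternatives, 1 of them (leaving out tumour cluster 19) added after the data were seen. Of 94 values, 77 moved by less than their interval and 16 moved more, and 1 turned direction from a value whose interval lay clear of 1: Ifng in T-like cells was 1.15 from summed UMIs and 0.700 as a mean of each cell's CPM. Where the interval held 1, Ifngr1 (0.936) and Il12rb1 (1.15) in NK-like cells also crossed 1, Il12rb1 to 0.847 with looser cell filters and 0.880 with each library clustered alone. Clustering each library alone gave 3.14 for Il12b in dendritic-like cells (3.88 above), 1.10 for Ifngr1 and 1.22 for Il12rb2 in NK-like cells and 1.15 for Irf1 in tumour-like cells. The mean of each cell's CPM gave 2.89 for Il12b, and in tumour-like cells 1.21 for Ifngr1, 0.931 for Jak2, 1.33 for Irf1 and 1.19 for Socs1. Looser cell filters (200 genes, 500 UMIs and no upper limit, 25% mitochondrial UMIs) gave 1.04 for Ifngr1, 0.988 for Jak2 and 1.47 for Irf1 in tumour-like cells. Without the 5 cells with the most UMIs of the gene, Il12b was 9.81 and Il12rb2 in NK-like cells 1.23, and Il12rb1 in NK-like cells gave no value. That alternative leaves out a larger share of the class in the library with fewer cells of it. Irf1 in granulocyte-like cells was 1.63 relative to the median gene, and Irf1 in tumour-like cells 1.15 without cluster 19. The cause of these shifts was not tested. A Leiden resolution of 2 and keeping doublets moved none of the 13 results beyond its interval. No paired analysis was possible because each group has 1 library. Il12rb1 in NK-like cells rests on 17 UMIs over both libraries.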
